A study of Danio rerio with 27 samples.

Results

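Adult testis and adult brain of the zebrafish were compared gene by gene, with 3 libraries of each tissue (6 of the 27 libraries of a series that sampled 9 tissues). The pair was chosen by the tissue labels and because these were the tissues with the most genes at 1 TPM or more. All fish were wild-type TLAB animals (a cross of the AB and Tüpfel longfin stocks) raised untreated under standard conditions, and they carried no transgene. Poly(A) RNA was sequenced in strand-specific libraries. The labels give neither the age and sex of the fish behind each library nor whether a library came from 1 fish or several. Each p-value thus measures only the spread between libraries of a tissue, estimated over all 27 libraries and not over these 6 alone. The values are TPM, a relative transcript abundance in which the reads of a gene are divided by its effective length and each library is scaled to the same sum, and they were compared as log2(TPM + 1), a scale that understates the difference of genes with low levels.

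The testis makes sperm in a continuous series of steps. Stem and dividing spermatogonia become spermatocytes, which pair and recombine their chromosomes in meiosis, and the haploid spermatids then build a tail around a motile axoneme, supported by Sertoli cells and by the hormone-producing Leydig cells. The brain is built of neurons that signal through synapses, of radial glia, which take the place of many mammalian astrocytes in fish, and of oligodendrocytes, which wrap axons in myelin. Each tissue thus carries a large programme of its own on top of the genes that every cell uses.

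The estimated counts summed to 11634613, 11998145 and 91119844 in testis replicates 1, 2 and 3, and to 8897397, 10232347 and 8405944 in brain replicates 1, 2 and 3. Testis replicate 3 was thus 7.71 times as deep as the mean of the other testis libraries. Genes at 1 TPM or more numbered 21396 to 22153 in testis and 19543 to 19756 in brain, against 8419 to 17406 in the 21 other libraries; since this count chose the pair, it is a description. The deeper testis library listed 22153 such genes, close to the 21867 of testis replicate 1. Within a tissue, Pearson's r between libraries was 0.970 to 0.981 over log2(TPM + 1) of all genes, and it was 0.448 to 0.484 between a testis and a brain library (genes are not independent replicates), and no replicates differed by as little as counting noise. The 13 mitochondrially encoded genes took 2.42% to 3.04% of TPM in testis and 13% to 13.9% in brain, and the part of this share in the results was not tested.

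The labels held against the marker genes of each tissue. The germ cell helicase DDX4 measured 687.2, 616.1 and 713.8 TPM in testis and 0, 0.126 and 0.184 TPM in brain. The Sertoli cell gene amh, which encodes anti-Müllerian hormone, measured 133.4, 107.4 and 281.6 TPM in testis and 0.522 to 0.722 TPM in brain. Conversely, ELAVL3, an RNA-binding protein of neurons, measured 184.7, 232.6 and 199.9 TPM in brain and 0.449 to 1.25 TPM in testis, and the glial filament gene GFAP measured 41.2 to 55.4 TPM in brain and 0.484 to 0.844 TPM in testis. All 6 testis markers were higher in every testis library than in any brain library, and each of the 6 brain markers had at least one identifier with the reverse order; of the 9 brain marker identifiers, 1 of the vesicular glutamate transporter SLC17A7 did not have it. Symbols are spelled as the name table gives them, which assigns many zebrafish genes the upper-case symbol of the human gene and often gives 1 symbol to 2 zebrafish identifiers. Where a symbol has 2 and no identifier is printed, the values are those of the one with the higher level.

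Differences between the tissues were tested with limma over the 25245 genes that reached 1 TPM in at least 3 of the 27 libraries, and a gene was called at an adjusted p (Benjamini-Hochberg) under 0.05 and a log2 difference of at least 1. By this rule 7438 genes (29.5% of those tested) were higher in testis and 5994 (23.7%) were higher in brain. The calls in either direction made up 53.2% of the genes tested, and the median log2 difference of all genes tested was 0.18, testis minus brain. In bulk tissue, fewer cells of a type and less RNA per cell cannot be told apart. Genes higher in testis held 56.8% to 58.1% of all TPM in the testis libraries and 13.7% to 14.0% in the brain libraries. Genes higher in brain held 56.1% to 57.0% of TPM in brain and 8.29% to 9.39% in testis. Both tissues therefore gave more than 56% of their TPM to genes called at least 2-fold lower on this scale in the other tissue. These genes were chosen by the same values, so a large share was in part built in. The brain share included mitochondrially encoded genes, such as MT-CO2 at 26000.3 to 31297.6 TPM. The testis share included si:dkey-153m14.1 at 19514.9 to 66386.2 TPM, whose call was lost in several alternatives. Shares without these genes were not computed.

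The tissues nonetheless shared most of the genes they expressed. All 3 testis libraries reached 1 TPM for 20384 genes, all 3 brain libraries did so for 18433 genes, and 16187 genes reached it in all 6. A further 2693 genes reached 1 TPM in every testis library and in no brain library, and 1175 genes reached it in every brain library and in no testis library. With a stricter limit of 10 TPM on the expressing side these counts were 740 for testis and 508 for brain.

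**Figure D1:**
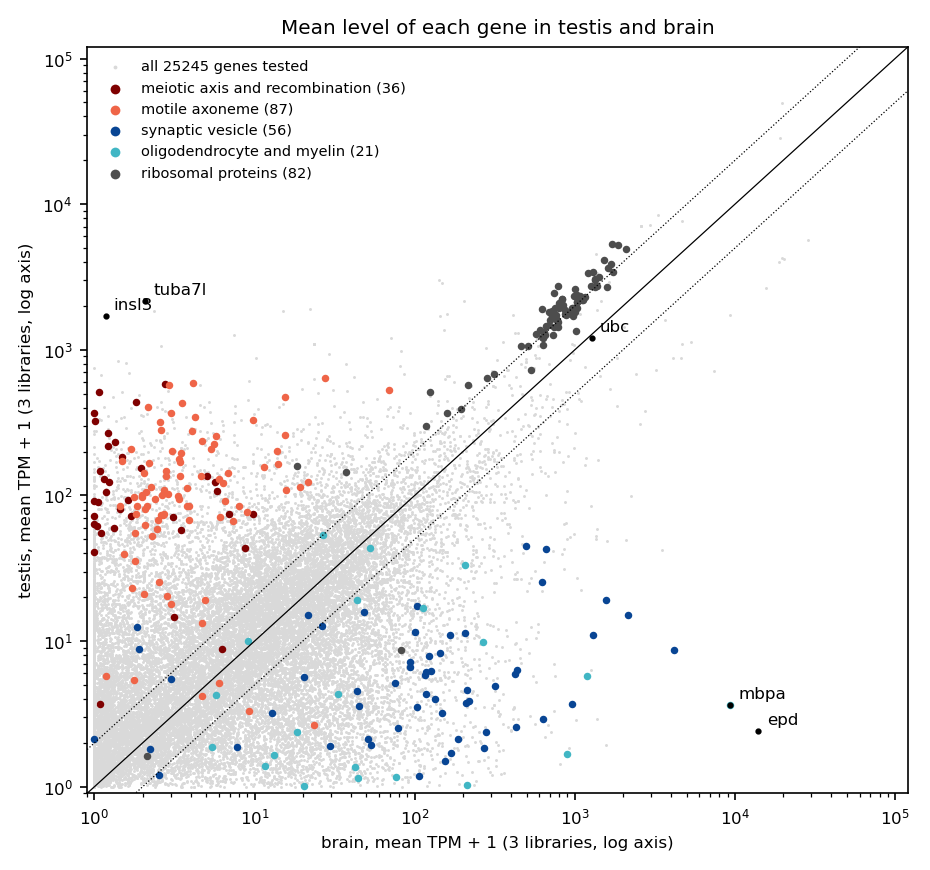
Mean TPM + 1 of each gene over the 3 testis libraries (vertical, log axis) against that over the 3 brain libraries (horizontal, log axis). Grey points are all 25245 genes tested, coloured points are the members of 5 lists, the solid line marks equal levels and the dotted lines a 2-fold difference. Meiotic and axonemal genes lie along the upper left edge, synaptic and myelin genes along the lower right edge, and the ribosomal proteins form a band near the upper dotted line.

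The genes with the largest differences in favour of testis included genes of Leydig cells and of germ cells. The Leydig cell hormone insl3 measured 1701.2, 1558.3 and 1868.6 TPM in testis and 0, 0 and 0.519 TPM in brain, a log2 difference of 10.54 ± 0.44 (SE; adjusted p = 8.8e-16). Against a floor of 3 counts per brain library insl3 was at least 2200-fold higher in testis. The alpha-tubulin gene tuba7l measured 2434.6, 1949.0 and 2099.6 TPM in testis and 0.898 to 1.25 TPM in brain, which is 10.03 ± 0.60 on the log2 scale (adjusted p = 6.0e-13). Every testis library thus stood more than 3 orders of magnitude above every brain library for both genes. Next came tdrd7a, a Tudor-domain protein of germ granules (9.26 ± 0.56), DDX4 (9.25 ± 0.36), the synaptonemal complex gene SYCP1 (8.90 ± 0.51) and PIWIL1, a Piwi protein that binds piRNAs and silences transposons (8.68 ± 0.53). The meiotic axis gene HORMAD1 had no count in any brain library and 332.8 to 426.1 TPM in testis, at least 1011-fold higher than the floor. The mitotic transcription factor FOXM1, the piRNA factor gtsf1, the meiotic cohesin smc1b, FANK1 and znf541 completed the 12 largest, with log2 differences of 8.51 to 8.08.

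The largest differences in favour of brain included genes of glia, myelin and neurons. The gene epd, which encodes ependymin, a glycoprotein secreted into the brain fluid of bony fish, measured 15390.9, 13433.6 and 13251.0 TPM in brain and 3.28, 0.754 and 0.183 TPM in testis, a difference of 12.72 ± 0.75 on the log2 scale (adjusted p = 4.1e-13). Myelin basic protein, mbpa, measured 10516.6, 8364.7 and 9227.1 TPM in brain and 7.0, 0.311 and 0.653 TPM in testis (size 11.82 ± 0.41, adjusted p = 2.1e-17). In both cases testis replicate 1 was the highest testis library. The glial glutamate transporter SLC1A2 (ENSDARG00000102453; 758.7 to 860.1 TPM in brain, 0.288 to 0.701 TPM in testis), the myelin proteolipid plp1b (822.5 to 983.7 against 0.481 to 0.889 TPM) and the glial potassium channel KCNJ10 (ENSDARG00000105022; 338.9 to 384.0 against 0.101 to 0.381 TPM) were also among the largest differences. Among neuronal genes, SNAP25 (ENSDARG00000020609), a SNARE protein of synaptic vesicle fusion, measured 3972.3 to 4395.0 TPM in brain and 3.58 to 10.8 TPM in testis, and the hormone gene oxt, the fish counterpart of oxytocin, measured 836.7 to 1042.2 against 0.667 to 1.02 TPM. The calcium sensor vsnl1b, the membrane glycoprotein GPM6A (ENSDARG00000055455), the neurofilament neff2, cd59a and crp1 completed the 12, with brain levels from 337.1 TPM (crp1) to 1778.9 TPM (cd59a) and no more than 2.16 TPM in any testis library.

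**Figure D2:**
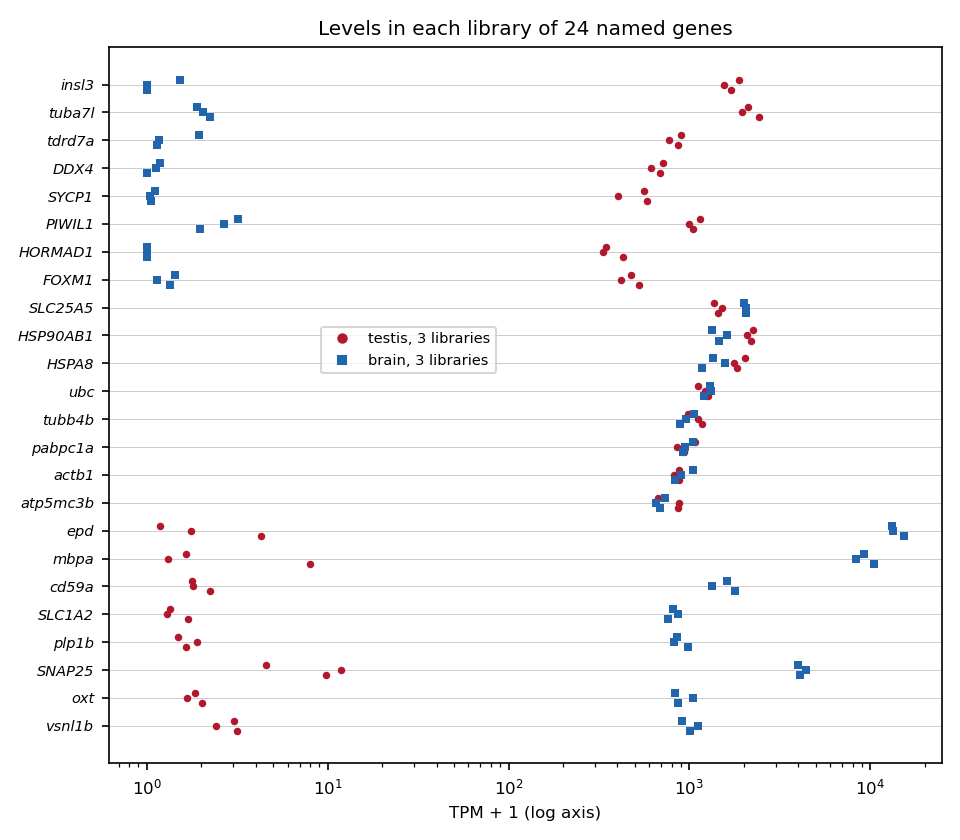
TPM + 1 in each library (horizontal, log axis) of the 8 genes with the largest difference in favour of testis (top), 8 highly expressed genes within 2-fold (middle) and the 8 genes with the largest difference in favour of brain (bottom). Red circles are testis libraries and blue squares brain libraries; in the top and bottom groups the tissues lie apart by at least 2 orders of magnitude, while in the middle group they overlap or lie close together.

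Genes of the germ line and of the piRNA pathway were almost all higher in testis. Of 23 tested, 22 were higher in testis, against 29.5% of all genes tested. The list median log2 difference was 6.24 against 0.18 over all genes. The summed level of the list was 4617 to 5374 TPM in testis and 54.6 to 58.7 TPM in brain. PIWIL1 led the list with 1040.0, 991.6 and 1141.5 TPM in testis and 0.978, 1.68 and 2.21 TPM in brain, and gtsf1 measured 331.0 to 500.1 TPM in testis and at most 0.310 TPM in brain. The exception was an identifier under the symbol TDRD7 (ENSDARG00000077523), which measured 5.92, 10.4 and 6.12 TPM in testis and 17.3, 15.8 and 14.9 TPM in brain, a log2 difference of -1.04 ± 0.23 (adjusted p = 3.2e-04). Thus tdrd7a and TDRD7 differed between the tissues in opposite directions, although the call of TDRD7 lay at the fold limit and was lost when brain replicate 1, testis replicate 1 or testis replicate 3 was left out (sizes 0.98, 0.91 and 0.93). The TDRD7 call was also lost after median-of-ratios scaling and quantile normalization (sizes 0.97 and 0.99).

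Genes of meiosis were higher in testis with a single exception. Of 36 genes of the chromosome axis and of recombination, 35 were higher in testis and none in brain (median 5.94). Of all genes tested, 29.5% were higher in testis and 23.7% in brain. The synaptonemal complex genes syce2, SYCP1 and SYCP3 measured 506.3 to 690.9, 400.5 to 583.5 and 403.0 to 455.6 TPM in testis, and none of them exceeded 2.40 TPM in brain. The remaining gene, the DNA helicase HELQ, measured 8.38, 7.27 and 8.03 TPM in testis and 3.85, 6.56 and 5.46 TPM in brain, which lay within 2-fold. Cell division followed the same direction, and all 52 genes of the cell cycle and of DNA replication were higher in testis (median 4.99, range 2.04 to 6.84). The replicative helicase subunit MCM7 measured 552.5, 454.4 and 581.3 TPM in testis and 28.0, 25.2 and 36.1 TPM in brain, and the sliding clamp PCNA measured 416.1 to 513.4 TPM in testis and 56.6 to 57.9 TPM in brain. PCNA thus kept a clear level in brain, whereas the mitotic kinase plk1, at 277.6 to 310.8 TPM in testis, measured 0.755, 1.76 and 3.84 TPM there.

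Genes of the motile axoneme, around which spermatids build the tail, formed the longest testis list, a length set by the choice of members. Of 87 genes of the motile axoneme, 83 were higher in testis, 2 were higher in brain and 2 were not called (median 4.90). The shares over all genes were 29.5% higher in testis and 23.7% higher in brain. The axoneme list summed to 11785 to 15259 TPM in testis against 403 to 481 TPM in brain. The microtubule-associated protein TEKT1 measured 736.4, 488.7 and 498.9 TPM in testis and 1.88, 2.70 and 1.16 TPM in brain, and the inner dynein arm protein DNALI1 measured 468.7 to 706.7 against 2.44 to 3.99 TPM. A further pair of members of high level had a clear brain level as well, namely GAS8, part of the nexin-dynein regulatory complex (554.9 to 738.1 against 19.4 to 32.7 TPM), and CFAP20 (411.2 to 650.6 against 63.0 to 76.3 TPM). The members higher in brain were spag1a (21.5, 23.6 and 22.5 TPM in brain against 1.43 to 2.03 TPM in testis), whose product helps to assemble dynein arms, and TPPP3 (7.24 to 10.0 against 1.69 to 2.92 TPM), a tubulin polymerization protein. Intraflagellar transport and the BBSome, which serve motile and non-motile cilia alike, differed less. Of 55 genes 44 were higher in testis and none in brain, with a median of 2.16 and sums of 3557 to 4297 TPM in testis against 841 to 947 TPM in brain. IFT46 measured 264.9 to 365.8 TPM in testis and 18.5 to 23.2 TPM in brain, while the kinesin motor subunit KIF3A, which also moves cargo in axons, averaged 57.1 ± 6.97 TPM in testis and 61.7 ± 7.29 TPM in brain (SD, n = 3).

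Genes of the sperm surface and of sperm-egg interaction were listed for only 5 of 20 symbols. All 5 were higher in testis, against 29.5% of all genes tested. DCST2 measured 152.0, 116.8 and 126.5 TPM in testis and 2.12, 1.86 and 1.88 TPM in brain (5.48 ± 0.24, adjusted p = 1.3e-15), and dcst1 measured 120.2, 93.4 and 90.6 TPM against 1.41, 2.42 and 1.86 TPM (5.15 ± 0.23, adjusted p = 2.3e-15). The brain level of both genes was low but above 1 TPM in every library. By contrast, tmem81 had no count in brain and 82.4 to 110.6 TPM in testis, at least 111-fold higher than the floor, and spaca6 measured 46.1 to 92.7 against 1.04 to 2.0 TPM. The remaining member, HVCN1, differed least, with 12.3 to 15.6 TPM in testis and 4.45 to 5.65 TPM in brain (1.33 ± 0.31). It was not particular to testis and reached 72.0 TPM in the libraries of the other tissues.

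Somatic cells of the testis formed a second testis programme. Of 29 genes of Sertoli cells, Leydig cells and steroid synthesis, 21 were higher in testis, 1 was higher in brain and 7 were not called (median 3.32). Of all genes tested, 29.5% were higher in testis and 23.7% in brain. After insl3, the list was led by gsdf, a growth factor of fish gonads (1193.9, 1032.2 and 1552.7 TPM in testis against 4.26 to 7.68 TPM in brain), by the sex determination factor DMRT1 (305.6 to 386.2 against 0.508 to 1.53 TPM) and by STAR, which carries cholesterol into mitochondria for steroid synthesis (212.2 to 321.9 against 0.880 to 1.03 TPM). HSD17B3, a steroid dehydrogenase that makes testosterone in the mammalian testis, ran against the list, with 12.9, 15.5 and 16.3 TPM in brain and 3.19, 2.28 and 3.22 TPM in testis (log2 difference -2.03 ± 0.42, adjusted p = 1.8e-04).

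**Figure D3:**
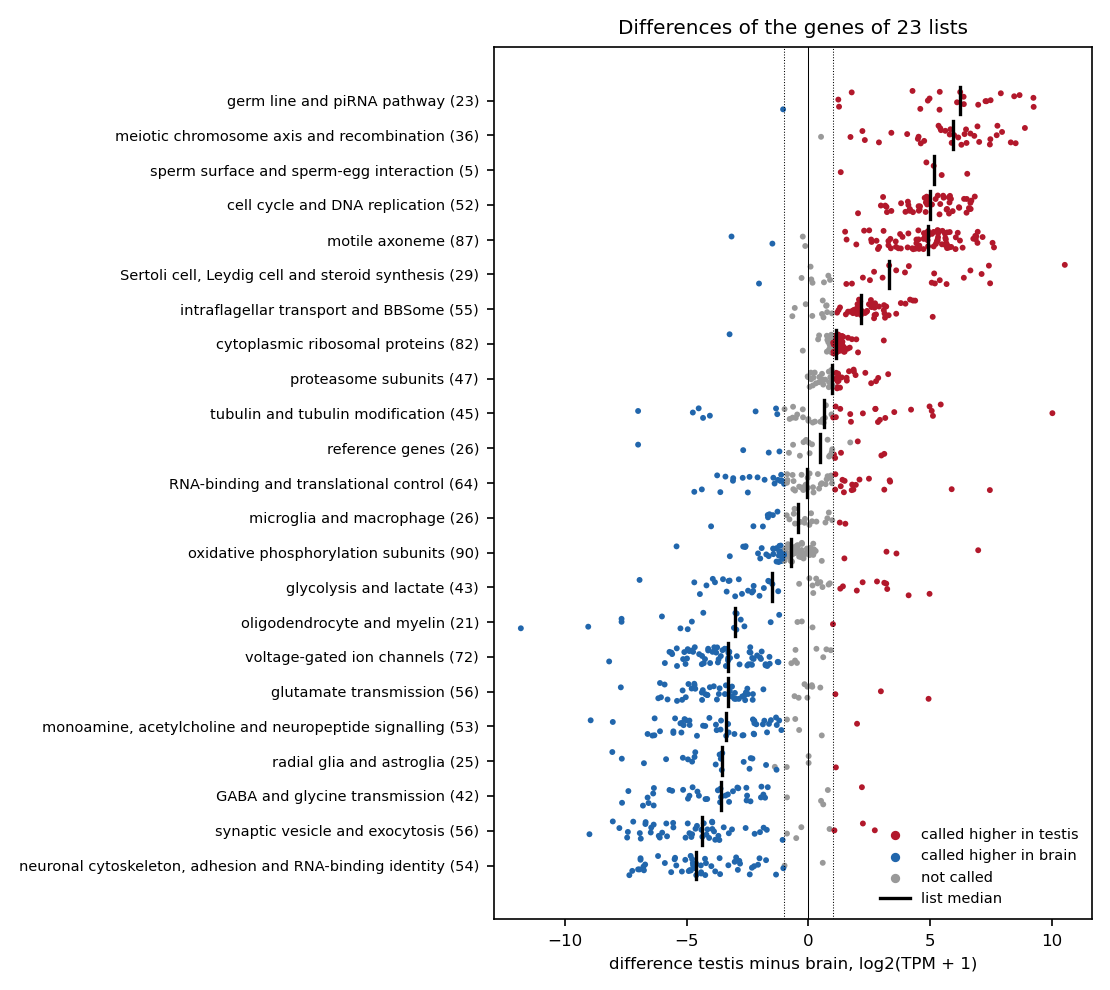
Log2 difference, testis minus brain, of each tested member of 23 gene lists (points; the number tested is in parentheses), ordered by list median (black bars). Red points were called higher in testis, blue points higher in brain and grey points not called; dotted lines mark a 2-fold difference, and vertical scatter within a row has no meaning. List medians run from 6.24 for germ line genes to -4.61 for neuronal cytoskeleton genes.

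In brain, the neuronal lists were higher nearly throughout. Of 54 genes of the neuronal cytoskeleton, adhesion and RNA-binding identity, 52 were higher in brain and none in testis (median -4.61). The shares over all genes were 23.7% higher in brain and 29.5% higher in testis. The tubulin-binding stathmins STMN4 and STMN2 measured 526.6 to 644.6 and 423.2 to 472.7 TPM in brain against 11.8 to 12.3 and 1.47 to 2.2 TPM in testis, and the alpha-tubulin tuba1c measured 1181.5, 1628.4 and 1269.4 against 45.9 to 52.5 TPM. NRGN, a calmodulin-binding protein of synapses, had the smallest gap of the 4 members of highest level, at 294.8, 463.4 and 569.5 TPM in brain and 151.8, 124.6 and 108.4 TPM in testis (-1.74 ± 0.22, adjusted p = 3.6e-07). Its call was lost with a pseudocount of 0.01 (-1.75). The synaptic vesicle list summed to 17936 to 18937 TPM in brain and 349 to 412 TPM in testis, and 49 of its 56 genes were higher in brain (median -4.38). The synucleins SNCG (2013.3 to 2247.7 against 3.48 to 20.2 TPM) and sncb (1468.1 to 1630.7 against 15.2 to 20.9 TPM) and the fusion regulator CPLX1 (1209.9 to 1354.3 against 6.42 to 11.9 TPM) stood beside SNAP25 at its head.

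A few synaptic genes were higher in testis. The vesicle glycoprotein sv2ba measured 12.5, 7.89 and 14.2 TPM in testis and 0.731 to 0.993 TPM in brain (2.73 ± 0.15, adjusted p = 1.2e-13), and the calcium sensor syt1b measured 8.17, 6.54 and 8.65 TPM against 0.398 to 1.45 TPM (2.24 ± 0.14, adjusted p = 2.3e-12). Their levels in testis were far below those of the leading vesicle genes in brain. The call of syt1b was lost in DESeq2 (log2 difference 3.13, adjusted p = 0.11). STX1A also passed, from 0.928 to 1.25 TPM in testis and 0 in all 3 brain libraries, at the limit of what could be measured (at least 1.24-fold over the floor), and it was no longer called after median-of-ratios scaling or quantile normalization (0.59 and 0.23).

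Genes of the main fast transmitters were higher in brain on both sides of the synapse. Of 56 genes of glutamate transmission 45 were higher in brain and 3 in testis (median -3.31), and of 42 genes of GABA and glycine transmission 37 were higher in brain and 1 in testis (median -3.60). The shares over all genes were 23.7% higher in brain and 29.5% higher in testis. The glutamate receptor subunit GRIN1 measured 472.7, 625.4 and 589.4 TPM in brain against 1.25 to 2.15 TPM in testis. On the inhibitory side GAD1 (ENSDARG00000027419), which makes GABA, measured 472.3 to 516.2 against 7.51 to 11.2 TPM, and the receptor subunit GABRD 307.0 to 397.5 against 0.611 to 1.1 TPM. The enzyme gene GLS2, whose product makes glutamate from glutamine, showed the opposite pattern. One GLS2 identifier (ENSDARG00000002917) measured 31.7, 28.8 and 30.8 TPM in testis and at most 0.0772 TPM in brain (4.94 ± 0.19, adjusted p = 1.0e-16), at least 111-fold higher, and the other (ENSDARG00000069095) measured 5.14 to 9.85 TPM in testis and at most 0.197 TPM in brain. Further exceptions were a GABA receptor subunit identifier, GABRA6 (ENSDARG00000075058; 3.54 to 4.62 TPM in testis, at most 0.141 TPM in brain), and one of the identifiers of the vesicular glutamate transporter SLC17A7 (ENSDARG00000090106; 7.14, 8.45 and 17.4 TPM in testis against 3.07 to 4.92 TPM in brain). The call of this SLC17A7 identifier was lost in edgeR, in DESeq2 and without testis replicate 3 or brain replicate 1 (log2 differences of 1.39, 1.3, 0.76 and 0.94). It was also lost after median-of-ratios scaling and quantile normalization (0.94 and 0.93) and with pseudocounts of 0.1 and 0.01 (1.26 and 1.28). The other SLC17A7 identifier (ENSDARG00000016480) was higher in brain (114.1 to 125.5 against 1.3 to 6.78 TPM).

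Of 53 genes of monoamine, acetylcholine and neuropeptide signalling, 48 were higher in brain and 1 in testis (median -3.38). The shares over all genes were 23.7% higher in brain and 29.5% higher in testis. Besides oxt, the neuropeptide adcyap1b (537.2, 690.8 and 802.6 TPM in brain, 1.07 to 2.81 TPM in testis), the granin scg2b (462.9 to 618.2 against 2.93 to 6.15 TPM) and the prohormone-processing enzyme CPE (416.5 to 448.0 against 7.96 to 10.1 TPM) had the highest levels. One identifier of TPH1 (ENSDARG00000036082), a tryptophan hydroxylase of serotonin synthesis, was higher in testis, at 4.25, 4.72 and 3.97 TPM against 0.149 to 0.491 TPM (2.0 ± 0.14, adjusted p = 1.2e-11). The other TPH1 identifier (ENSDARG00000029432) was higher in brain, at 6.49, 6.99 and 7.12 TPM against 0.591 to 0.738 TPM in testis (-2.22 ± 0.10). The pro-opiomelanocortin gene POMC, a member of this list, varied far more in brain than the others, with 1156.2, 35.8 and 7.14 TPM. The pituitary hormone genes gh1, prl and lhb had the same order of brain libraries, and 14 pituitary markers together summed to 2759 TPM in brain replicate 1, 106 TPM in brain replicate 2, 37.7 TPM in brain replicate 3 and 19.0 to 24.7 TPM in testis. Without brain replicate 1, 48 genes of the signalling list were again higher in brain and 1 in testis (median -3.24), while of the 11 pituitary markers tested the number higher in brain was 4 in place of 7 and 2 became higher in testis. In that fit the log2 differences of gh1, prl and lhb were -0.93, -0.60 and -0.76 in place of -3.19, -2.79 and -2.91, and none of them was called. Their calls were also lost when only the 6 testis and brain libraries were fitted (limma adjusted p of 0.12, 0.14 and 0.13). Ion channels closed the neuronal lists, with 64 of 72 voltage-gated and related channel genes higher in brain and none higher in testis (median -3.30). The sodium channel subunit SCN2B measured 105.8 to 152.9 TPM in brain and 1.92 to 3.30 TPM in testis, and the potassium channel kcnc3a 116.2 to 123.6 against 2.04 to 3.51 TPM.

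Genes of glia and myelin were mostly higher in brain. Of 21 genes of oligodendrocytes and myelin, 17 were higher in brain (median -3.00), and the list summed to 11455 to 14066 TPM in brain against 178 to 211 TPM in testis. The myelin enzyme gene cnp was the exception, with 52.2, 47.2 and 58.9 TPM in testis and 23.4, 29.8 and 24.3 TPM in brain (1.01 ± 0.24, adjusted p = 6.7e-04), so that the libraries did not overlap but the difference lay at the fold limit. It was no longer called without brain replicate 1 or 3 or testis replicate 3, with log2 differences of 0.93 to 0.97. The cnp call was also lost after median-of-ratios scaling (0.94). Of 25 genes of radial glia and astroglia, 20 were higher in brain and 1 in testis (median -3.56). Among them, the lipid carrier FABP7 measured 1463.7, 1355.4 and 1231.9 TPM in brain and 49.1 to 53.5 TPM in testis, and the growth factor MDK (ENSDARG00000020708) 947.8 to 998.1 against 2.43 to 2.83 TPM. One glutamine synthetase identifier, GLUL (ENSDARG00000099776), measured 1410.8 to 1687.3 TPM in brain and 23.1, 49.8 and 70.4 TPM in testis, whereas the other (ENSDARG00000100003) measured 370.3 to 456.6 TPM in brain and 112.4, 280.6 and 370.8 TPM in testis and was not called. ALDH1L1, a folate enzyme of mammalian astrocytes, was higher in testis (9.72 to 9.92 against 3.10 to 5.11 TPM; 1.13 ± 0.30, adjusted p = 0.0019), a call lost after both scalings and without brain replicate 3 (0.94, 0.91 and 0.99). Microglia and macrophage genes were the one brain list without a clear side. Of 26 tested 8 were higher in brain, 2 in testis and 16 were not called (median -0.44). Over all genes 23.7% were higher in brain and 29.5% in testis. Several of the tested identifiers were of MFAP4, at low levels in both tissues. The class II invariant chain cd74a measured 658.1 to 801.5 TPM in brain and 186.1 to 233.5 TPM in testis, while the protease CTSB measured 92.6 to 94.9 and 83.5 to 86.0 TPM.

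The levels of other genes differed by less than 2-fold. For 4177 genes (16.5% of those tested) the 95% interval of the log2 difference lay within a 2-fold difference in both directions and both tissues averaged at least 1 TPM. Highest among them, ribosomal and mitochondrially encoded genes aside, were the ATP/ADP carrier SLC25A5, the chaperones HSP90AB1 and HSPA8 (ENSDARG00000068992), the polyubiquitin gene ubc, the beta-tubulin tubb4b, the poly(A)-binding protein pabpc1a, the actin actb1 and the ATP synthase subunit atp5mc3b. Of these, SLC25A5 was higher in every brain library (2004.3 to 2064.8 TPM) than in any testis library (1371.1 to 1519.2 TPM), and HSP90AB1 was higher in every testis library (2079.5 to 2257.8 against 1329.1 to 1605.7 TPM), both by less than 2-fold. The ranges of ubc and pabpc1a overlapped. The former measured 1259.0, 1217.9 and 1111.6 TPM in testis and 1208.1, 1323.1 and 1291.8 TPM in brain (-0.09 ± 0.21), and the latter measured 858.1 to 1069.4 TPM in testis and 920.8 to 1045.2 TPM in brain (-0.03 ± 0.23). The number of such genes depended on the pseudocount, at 2205 with 0.1 and 1962 with 0.01. Common reference genes were not all among them. Of 26 tested, 6 were higher in testis and 4 in brain, lower shares than the 29.5% and 23.7% over all genes. Among them, actb2 measured 3280.5, 3808.1 and 3824.1 TPM in brain and 1501.1, 1512.8 and 1762.7 TPM in testis (-1.19 ± 0.18, adjusted p = 3.5e-06).

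The pair was also set beside the other tissues. In TPM as deposited, for 5085 genes (20.1% of those tested) each of the 6 testis and brain libraries lay above each of the 21 libraries of heart, intestine, liver, muscle, skin, spleen and tail. Of these, 1020 were higher in testis than in brain, 1398 were higher in brain and 1581 lay within 2-fold. This count depended on the scaling. Median-of-ratios factors, which set the libraries to a common level over the genes present in all of them, were 1.98 to 2.32 for the 6 libraries and 0.213 to 1.44 for the other 21, and after division by them 1508 genes (5.97%) kept the pattern, of which 212 were higher in testis and 674 in brain. After quantile normalization 758 genes had it, 757 of them among the 5085. Both alternatives were chosen after the data were seen. Of the 8 members of highest level, the chromatin proteins hmgb1b and hmgb1a had the widest gaps in TPM by ratio. The ratio was that of the lowest of the 6 libraries to the highest elsewhere. The level of hmgb1b was 1157.2 to 1401.9 TPM in testis and 420.3 to 465.4 TPM in brain against at most 61.4 TPM elsewhere, and that of hmgb1a was 854.1 to 1050.9 and 535.1 to 575.9 against at most 136 TPM. The histone gene h2ax1 (591.3 to 835.5 and 503.8 to 596.1 against at most 180 TPM), the RNA-binding protein khdrbs1a (536.6 to 601.3 and 653.4 to 753.6 against at most 400 TPM), the calmodulin gene calm3b, the ubiquitin ligase subunit SKP1, ubc and tubb4b completed the 8. All 8 kept the pattern after quantile normalization, but after median-of-ratios scaling only hmgb1b (lowest scaled value of the 6 libraries 200, highest elsewhere 53.8) and, barely, calm3b (221 against 220) did so. A test was not made for this pattern, since the pair itself was chosen for its many expressed genes.

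Genes of RNA-binding and translational control had calls in both directions, in shares near those of all genes. Of 64 genes, 17 were higher in testis, 19 in brain and 28 were not called (median -0.07; over all genes 29.5% were higher in testis and 23.7% in brain), and the summed levels overlapped, at 4507 to 5482 TPM in testis and 5195 to 5574 TPM in brain. The 4 members of highest level, pabpc1a, YBX1, khdrbs1a and pabpc1b, were not called. The ends of the list, picked after their values were seen, were far apart. ELAVL2 measured 201.5, 169.2 and 173.2 TPM in testis and 0.110, 0 and 0 TPM in brain, at least 546-fold higher, although its relative ELAVL3 was the neuronal marker above. EIF4E1B, a cap-binding protein of germ cells, measured 110.1 to 139.0 against 0.778 to 1.21 TPM, whereas the splicing regulators CELF2 (155.2 to 189.1 TPM in brain, 5.62 to 9.38 TPM in testis) and CELF3 (ENSDARG00000006983; 48.4 to 57.2 against 0.677 to 1.40 TPM) were higher in brain. The tubulin list summed to 5416 to 6249 TPM in testis and 5502 to 6183 TPM in brain, with 19 of 45 members higher in testis and 8 in brain, but the alpha-tubulin of testis was mainly tuba7l, and that of brain was tuba1c with TUBA1A (774.7 to 904.4 TPM in brain, 36.4 to 45.3 TPM in testis), while the beta-tubulin tubb4b was at a like level in both. TUBB2B (ENSDARG00000039522) measured 189.2 to 217.1 TPM in brain and under 1 TPM in every testis library. Tubulin genes have near-identical copies, between which the assignment of reads is uncertain.

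Genes of ribosomal proteins and of the proteasome leaned to testis in relative transcript level, and those of glycolysis and oxidative phosphorylation to brain. Of 82 identifiers of cytoplasmic ribosomal proteins, 56 were higher in testis and 1 in brain (median 1.13), and 79 had every testis library above every brain library. Over all genes 29.5% were higher in testis, 23.7% were higher in brain and 42.9% had every testis library above every brain library. The ribosomal identifiers summed to 133319 to 175431 TPM in testis and 66289 to 74628 TPM in brain. RPS10 measured 5353.3, 5975.4 and 4441.2 TPM in testis and 1876.3, 1717.0 and 1986.3 TPM in brain. Many members lay near the fold limit, so that their number of calls ranged from 43 to 72 over the alternatives. Proteasome subunits followed with 23 of 47 higher in testis, none in brain and 24 not called (median 0.98). PSMB7 measured 388.2 to 504.6 against 133.4 to 145.8 TPM.

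Of 43 genes of glycolysis and lactate handling, 23 were higher in brain and 10 in testis (median -1.48), against 23.7% and 29.5% over all genes. They summed to 9726 to 10540 TPM in brain and 2277 to 2446 TPM in testis. The dehydrogenase gene GAPDHS, named after an enzyme that in mammals is found in sperm, measured 2615.3, 2883.1 and 2714.4 TPM in brain and 382.4, 411.9 and 337.0 TPM in testis (-2.86 ± 0.19, adjusted p = 3.7e-12). GAPDH itself, a common reference gene, was lower than GAPDHS in both tissues and higher in testis (158.9, 224.7 and 84.9 TPM against 25.7, 12.4 and 12.2 TPM). Pyruvate kinase PKM (1334.3 to 1443.4 TPM in brain, 154.8 to 203.8 TPM in testis), ALDOA (827.1 to 966.0 against 174.3 to 195.4 TPM) and ENO1 (916.3 to 1030.3 against 44.9 to 61.0 TPM) were higher in brain. Testis had other genes of the same steps, of which, chosen after their values were seen, ENO4 measured 108.7 to 144.1 TPM in testis and 1.97 to 3.65 TPM in brain, and a GPI identifier (ENSDARG00000103826) 42.2 to 50.5 against 1.44 to 1.82 TPM, beside a more abundant GPI identifier (ENSDARG00000012987) that was higher in brain (350.1 to 385.8 against 94.3 to 107.3 TPM).

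Nuclear-encoded subunits of oxidative phosphorylation were mostly not called, in 56 of 90 cases, with 30 higher in brain and 4 higher in testis (median -0.72). Over all genes 23.7% were higher in brain and 29.5% in testis. Every brain library lay above every testis library for 66 of the 90, against 34.2% of all genes, and 29 of the 90 lay within 2-fold. COX7C, COX5B (ENSDARG00000015978) and ATP5F1B were the members of highest level that were called, each between 2.14- and 2.44-fold higher in brain by mean TPM; the call of COX7C was lost without testis replicate 3 (-0.94). All 4 members higher in testis were subunits of cytochrome c oxidase, the last enzyme of the respiratory chain. Another COX5B identifier (ENSDARG00000068738) measured 679.9, 551.4 and 484.5 TPM in testis and 3.97, 2.41 and 4.30 TPM in brain (6.98 ± 0.36, adjusted p = 3.6e-14). COX7A2 (ENSDARG00000110700) measured 707.1 to 1239.1 against 51.0 to 112.0 TPM, COX6A1 62.4 to 85.8 against 5.41 to 12.2 TPM and cox7a1 37.2 to 67.7 against 9.67 to 26.5 TPM. The members COX7A2, COX6A1 and cox7a1 were named after their values were seen. In brain the leading genes by level were mitochondrial, with MT-CO2 at 31297.6, 26000.3 and 28306.7 TPM against 6677.1, 5319.0 and 5064.5 TPM in testis. In testis the highest gene with a symbol was si:dkey-153m14.1, a locus named only by its clone, at 19514.9, 66386.2 and 62744.2 TPM, so that testis replicate 1 stood apart, against 18204.6 to 20578.7 TPM in brain. The loci zgc:158463 (13396.6 TPM in testis replicate 1, 35967.3 and 36140.0 TPM in the others) and si:dkeyp-3b12.10 (2059.3, 5617.9 and 7901.9 TPM) had the same low library. The calls of si:dkey-153m14.1 and si:dkeyp-3b12.10 were lost without testis replicate 2, testis replicate 3 or brain replicate 1 (log2 differences of 0.84 to 1.21). Both calls were also lost after median-of-ratios scaling (1.11 and 1.24). That of si:dkey-153m14.1 was lost without the filter (1.14), and that of si:dkeyp-3b12.10 after quantile normalization (1.06).

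Zebrafish keep many genes in 2 copies from a whole-genome duplication of the bony fish, and the copies could be compared between the tissues. Among 615 tested pairs of symbols that differ in a final a or b, 72 had both copies higher in testis, 109 had both higher in brain and 34 (5.53%) had one copy higher in each tissue. The count of split pairs was 54 in edgeR, 55 in DESeq2 and 53 with a pseudocount of 0.1. It was 26 after median-of-ratios scaling and 28 after quantile normalization. Since the name table gives many duplicates 1 shared symbol, a second set was formed after this was seen, of 1482 tested pairs of identifiers under 1 upper-case symbol. Of these, 78 (5.26%) had both copies higher in testis, 416 (28.1%) had both higher in brain and 111 (7.49%) were split. Both copies of a pair were therefore higher in brain more than 5 times as often as both were higher in testis in this set (416 against 78 pairs), although among all genes fewer were higher in brain than in testis (23.7% against 29.5%). The copies in this set were themselves shifted to brain, with a median log2 difference of -0.66 against 0.18 over all genes, and where only 1 copy was called it was higher in brain in 331 pairs and in testis in 243. The pairs were not checked for common descent, and reads of near-identical copies may be shared.

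The widest split was that of CKB, brain-type creatine kinase, which stores energy as phosphocreatine. One identifier (ENSDARG00000043257) measured 3485.5, 3612.6 and 3384.8 TPM in brain and 41.5, 43.7 and 39.4 TPM in testis (-6.36 ± 0.30, adjusted p = 5.8e-15), and the other (ENSDARG00000069752) measured 13.2, 14.7 and 14.4 TPM in brain and 2091.6, 1723.9 and 1721.3 TPM in testis (6.93 ± 0.34, adjusted p = 1.5e-14). Each tissue thus used almost only 1 of the copies, and the copies together reached 1760.7 to 2133.1 TPM in testis and 3399.2 to 3627.3 TPM in brain. The histone chaperone gene SSRP1 was split between one identifier at 129.5 to 159.7 TPM in testis and 6.62 to 7.31 TPM in brain (ENSDARG00000037397) and one at 46.9 to 53.6 TPM in brain and 3.85 to 4.32 TPM in testis (ENSDARG00000016994). SHISAL1, BIN1, MARCHF4, STMN1, SEPTIN9 and GABRR2 were the others of the 8 widest splits in this set. Their smaller differences ranged from 3.51 (SHISAL1) to 2.35 (GABRR2) in size. The calls of BIN1 (ENSDARG00000042114) and MARCHF4 (ENSDARG00000055839) were lost with a pseudocount of 0.01 (log2 differences of -3.52 and 3.17). For SEPTIN9, a cytoskeletal GTPase, the summed level of the copies was 28.3 to 36.2 TPM in testis and 28.7 to 33.9 TPM in brain.

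Among the a/b pairs, spag1 had the widest split. The copy spag1b measured 84.4, 67.5 and 72.1 TPM in testis and 3.44 to 5.05 TPM in brain, opposite to spag1a above. The dystrobrevin genes dtnba (63.5 to 91.1 TPM in testis, 9.56 to 11.7 TPM in brain) and dtnbb (6.29 to 9.27 against 67.0 to 76.1 TPM) and the potassium channel genes kcnn1b (56.7 to 67.3 against 7.27 to 8.16 TPM) and kcnn1a (8.99 to 12.4 against 55.0 to 61.1 TPM) exchanged places at nearly constant sums, which were 69.8 to 100.4 and 76.6 to 87.5 TPM for dtnb and 65.8 to 76.4 and 62.9 to 68.4 TPM for kcnn1. The ketone body enzyme pair oxct1, the proline dehydrogenase pair prodh, phactr4, dusp3 and fabp10 completed the 8. Of these, fabp10a, a fatty acid binding protein of liver, was higher in testis (231.5, 185.7 and 94.8 TPM against 4.88 to 12.7 TPM), and fabp10b was higher in brain (17.4 to 25.7 against 1.56 to 3.07 TPM). In the libraries of the other tissues fabp10a reached 132201 TPM. The calls of fabp10a and kcnn1b were lost with a pseudocount of 0.01 (log2 differences of 4.30 and 3.01). The part of liver transcripts in the fabp10 split was not tested.

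**Figure D4:**
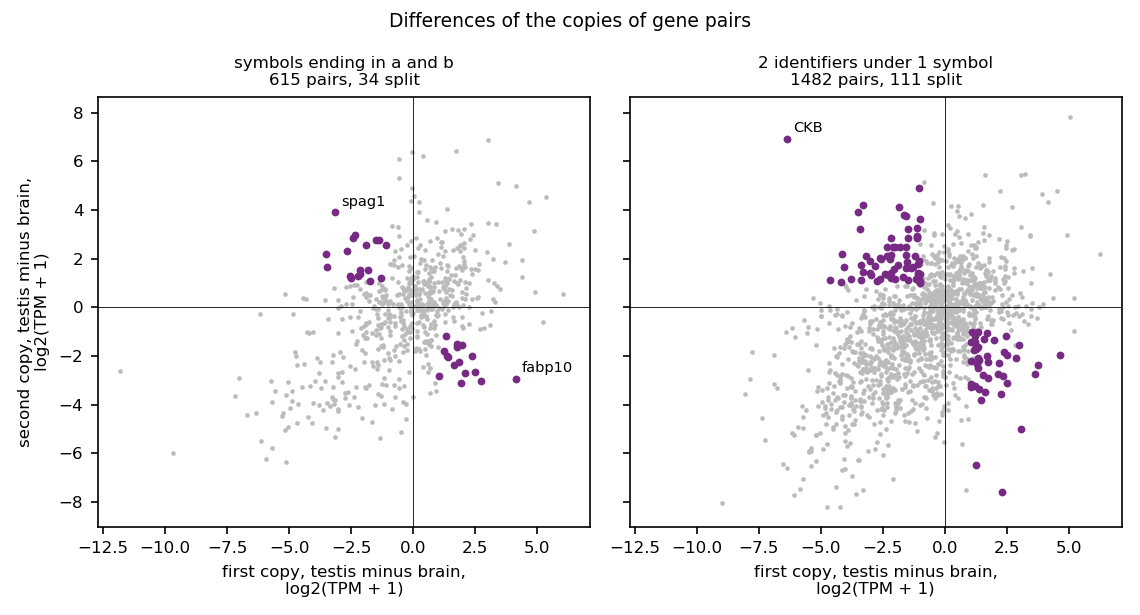
Log2 difference, testis minus brain, of the second copy (vertical) against that of the first copy (horizontal) for 615 pairs of symbols ending in a and b (left) and 1482 pairs of identifiers under 1 symbol (right). Purple points are the 34 and 111 pairs with one copy called higher in each tissue; the point at the upper left of the right panel is CKB.

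Markers of other cell types were counted as well. Liver genes were higher in testis in 15 of 18 cases and in brain in 1, and the 24 identifiers summed to 438 to 787 TPM in testis and 465 to 570 TPM in brain, with 4 of them at 0 in all brain libraries and 6 not tested. The apolipoprotein apoc1 made up most of the brain sum (436.8 to 531.7 TPM), while fabp10a, apoa2 (74.4 to 169.1 TPM) and apoa1b (43.2 to 100.3 TPM) were lowest in testis replicate 3 and highest in testis replicate 1. Genes of the ovary and egg were higher in testis in 9 of 12 cases and in brain in 1 (sums of 184 to 219 and 9.39 to 12.6 TPM), led by org, DND1 and buc; after quantile normalization the 9 were 4. DND1 and buc are genes of germ cells of both sexes. Red cell genes summed to 71.8 to 160 TPM in testis and 21.9, 180 and 362 TPM in brain, with 2 of 9 higher in testis and 1 in brain. Over all genes 29.5% were higher in testis and 23.7% in brain, so the red cell list had no excess of calls on either side. Its brain call, hemgn, was lost in several alternatives, and its testis call SLC4A1 (ENSDARG00000012881) after quantile normalization (log2 difference 1.41). The part of liver, ovary, red cell and pituitary transcripts in the lists above was not tested.

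**Figure D5:**
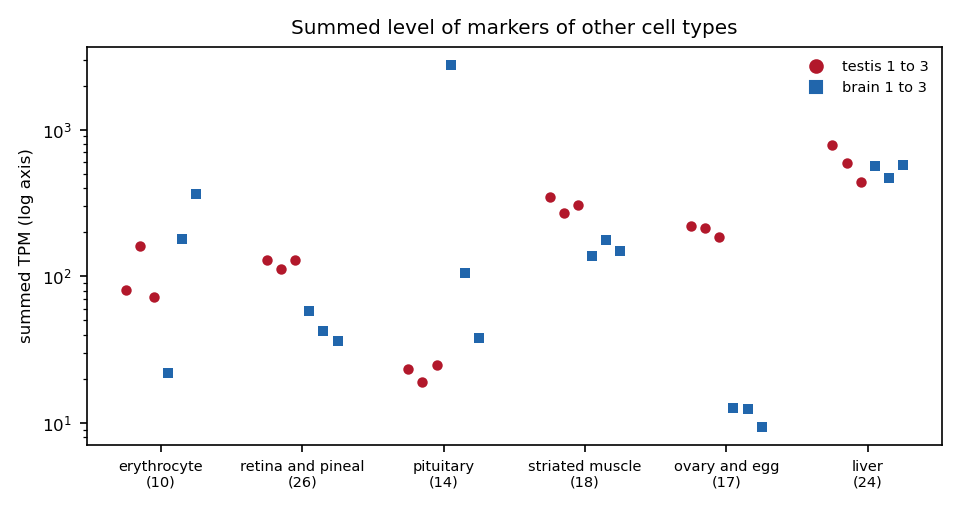
Summed TPM (vertical, log axis) of 6 lists of marker genes of other cell types in the 3 testis libraries (red circles) and the 3 brain libraries (blue squares), each in the order of replicates 1 to 3; the number of identifiers is in parentheses. Pituitary genes reach 2759 TPM in brain replicate 1 and 106 TPM or less in the other libraries.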

How the data were processed

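Per library, the authors deposited estimated counts (not normalized) and TPM, scaled by effective length to a fixed sum, for 32524 Ensembl genes. The submitters' processing notes name cutadapt 1.18, HISAT2 2.1.0, SAMtools 1.9, kallisto 0.43.0 and the build GRCz11, with no role given. Symbols came from a name table that covered 29201 identifiers. Libraries were grouped by their labelled tissue.

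TPM was tested as log2(TPM + 1) with limma 3.58.1 (R 4.3.3): a mean per tissue over all 27 libraries, eBayes with a trend, the contrast testis minus brain, and a filter that kept genes reaching 1 TPM in 3 or more libraries. Scripts were tested on simulated counts with 200 changed genes. The limma rule recovered 149 of them and called 8 unchanged genes, edgeR 159 and 6, and DESeq2 174 and 22. At a simulated log2 difference of 1.5, limma recovered 35 of 67. The floor was 3 counts per library, which covers counting error only. Alternatives were edgeR 4.0.16 and DESeq2 1.42.0 on rounded counts, pseudocounts of 0.1 and 0.01, no filter, only the 6 libraries, 2 scalings (median-of-ratios and quantile), no trend, the replicate number as a block, other expression limits (0.5 and 2 TPM) and leaving out each replicate. The tissues, gene lists and tests were chosen with earlier results of these data known, and the shared-symbol pairs after the name table was seen. Named genes are the 2 to 4 members of highest mean TPM of each list and called members that went against it, the 12 largest differences each way with a proper symbol, the 8 genes of highest level in each tissue, within 2-fold and above all other tissues, and the 8 widest split pairs. HELQ, KIF3A, TUBA1A and other members outside this rule were named after their values were seen. A few genes that this rule selects are not reported here.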

Additional observations from a re-analysis of the deposited data

How the results depend on the processing

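Over 16 alternatives the genes higher in testis numbered 5930 to 8388 and those higher in brain 5490 to 6425, and no gene called in the comparison above was called in the opposite direction. Leaving out 1 library gave 7172 to 7637 genes higher in testis, 5752 to 6139 higher in brain, 3524 to 3584 within 2-fold, 31 to 39 split a/b pairs and 100 to 104 split pairs under 1 symbol. The count within 2-fold was 2205 with a pseudocount of 0.1 and 1962 with 0.01, and edgeR gives no interval for it, so that alternative was not run. Split a/b pairs numbered 55 in DESeq2, 54 in edgeR and 53 with a pseudocount of 0.1. They numbered 26 after median-of-ratios scaling and 28 after quantile normalization. Split pairs under 1 symbol numbered 81 after median-of-ratios scaling, 86 after quantile normalization and 129 with a pseudocount of 0.1. The cause was not tested. Genes that reached the limit in all 3 libraries of a tissue numbered 22630 in testis and 20010 in brain at 0.5 TPM, and 17509 and 16499 at 2 TPM. Quantile normalization moved the median of all genes from 0.18 to -0.01, called 5930 genes higher in testis and 5766 in brain, and put 50.7% of calls on the testis side in place of 55.4%. The 3 same-numbered pairs of testis and brain libraries deviated together with r of 0.11, 0.08 and 0.08, each the highest for its library. Whether equal numbers share a source was not tested, and the libraries were not taken as pairs. With the replicate block 7473 genes were higher in testis, 6024 in brain and 4317 within 2-fold, with 35 split a/b pairs and 113 under 1 symbol, and no named gene changed its call. Of 191 named genes, 30 changed their call in at least one alternative and none turned. Of 464 medians (29 lists under 16 alternatives), 113, of 21 lists, moved by more than the spread between replicates, with up to 19 lists in an alternative (pseudocount of 0.01). Those of RNA-binding (-0.07; 0.03 without testis replicate 2) and of retina (0.22; -0.14 without the filter, -0.13 after quantile normalization, -0.04 without brain replicate 2) changed sign, and none of at least 1 in size did. Genes with all 6 libraries above the 21 others numbered 1508 after median-of-ratios scaling and 758 after quantile normalization, against 5085, and the cause was not tested.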

Other observations

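Some genes named for other organs differed widely between the tissues (over all genes 29.5% were higher in testis and 23.7% higher in brain). The blue-cone opsin opn1sw2 measured 84.8, 70.4 and 82.6 TPM in testis and at most 0.279 TPM in brain (log2 difference 6.09 ± 0.19, limma adjusted p = 4.6e-18), at least 122-fold higher. The cone phosphodiesterase PDE6C followed with 8.85, 8.86 and 10.4 TPM against 0.0787 to 0.232 TPM, and PDE6B (ENSDARG00000000380) with 5.79 to 6.63 against 0.730 to 2.73 TPM. The call of this PDE6B identifier was lost with a pseudocount of 0.01 (log2 difference 2.39). Of 15 tested genes of retina and pineal, 4 were higher in testis, 2 in brain and 9 were not called. Among striated muscle genes, the calcium pump atp2a1 measured 135.3, 73.9 and 97.8 TPM in testis and 0.236 to 0.459 TPM in brain (6.26 ± 0.28, adjusted p = 3.1e-15), and NEB, the giant thin-filament protein nebulin, measured 82.9 to 107.2 against 1.09 to 2.52 TPM. The actin actc1b, in contrast, measured 31.0 to 34.7 TPM in testis and 28.7 to 35.7 TPM in brain, and tpma, a tropomyosin, was higher in brain (58.2, 88.2 and 73.5 TPM against 4.12 to 5.93 TPM). Of 16 tested muscle identifiers, 6 were higher in testis, 1 in brain and 9 were not called; the other testis calls were TNNC2, pvalb2 and 1 of 2 identifiers each of TNNT3 and MYL1, all at 13.7 TPM or less. Names such as opn1sw2 and atp2a1 come from the name table alone, and these genes were singled out after their values were seen.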
